A study of Mus musculus with 12 samples.

Results

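The 9 genes described here are Cpeb1, Cpeb2, Cpeb3, Cpeb4, Pum2, Fmr1, Fxr1, Fxr2 and Stau2. They encode RNA-binding proteins and were grouped as 3'UTR-binding regulators of translation in dendrites. They were taken by symbol from the Ensembl gene IDs of the count files, where all 9 were found among 37991 listed genes, and all 9 passed the filter on low counts that left 16399 genes for the test. The rule goes by name and uses no measured value. Stau1, the nearest relative of Stau2, was measured beside them for comparison and is not counted among the 9.

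The data were poly(A) RNA-seq read counts from the hippocampus of C57BL/6N mice, with 6 libraries labelled Gadd45a-WT (wild type) and 6 labelled Gadd45a-KO (Gadd45a-/-). The animals of both groups were siblings from crosses of heterozygotes, aged 6 to 7 months by the labels (the general methods of the study give a younger range for adult males), and all had gone through the passive avoidance (PA) test, a fear memory task, 1 h before the hippocampus was taken. There was no untrained group, so every value is a level after the test. The deletion is constitutive and present in every cell, with the first 3 exons of Gadd45a replaced by a neomycin resistance cassette and exon 4 left in place. Gene reads per library ranged from 44594261 to 55540601. Levels are given as CPM, the reads of a gene per 1000000 gene reads after scaling with edgeR's TMM factors, and differences as log2 fold changes of the libraries labelled Gadd45a-KO against those labelled Gadd45a-WT.

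Gadd45a itself, the gene deleted in the mutant, had reads in the opposite order to what its labels would give. Gadd45a lay between 2.19 and 3.43 CPM in the libraries labelled Gadd45a-WT (median 2.40) and between 20.5 and 23.1 CPM in the libraries labelled Gadd45a-KO (median 21.1), a log2 fold change of 3.06. Whether the reads came from exon 4 or from elsewhere in the gene cannot be read from counts per gene, and neither this nor an exchange of labels was tested. The samples are therefore named by their labels throughout, and each direction below is a direction between labels. Hippocampal neuron markers were present in every library, with summed levels of 1109 to 1201 CPM under the label Gadd45a-WT and 946 to 1244 CPM under Gadd45a-KO. The medians were 1159 and 1046 CPM, and 4 of the 6 values under the label Gadd45a-KO were below all those of the other label (exact permutation p = 0.084). Markers of the neighbouring thalamus (11 genes, of which 1 annotated copy of Ntng1 was under 1 CPM everywhere) summed to 159 to 208 CPM in the libraries labelled Gadd45a-WT. In the libraries labelled Gadd45a-KO they ranged from 161 to 646 CPM, and replicates 2 and 3 stood apart with 437 and 646 CPM. Oligodendrocyte markers (6 genes) were also highest in replicate 3 of that label, at 7311 CPM, beside 2317 to 3679 CPM in the libraries labelled Gadd45a-WT, and their medians were 3599 and 3015 CPM (exact permutation p = 0.065). Microglia markers had medians of 213 CPM under the label Gadd45a-KO and 205 CPM under Gadd45a-WT (exact permutation p = 0.056). For the thalamus markers, fits with their sum as a covariate and without replicates 2 and 3 labelled Gadd45a-KO are given below. The part of the other shifts in the differences below was not tested. In whole tissue, fewer cells of a type and less RNA per cell cannot be told apart.

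CPEB proteins bind the cytoplasmic polyadenylation element, a short U-rich motif in the 3'UTR, and repress or activate translation through control of the poly(A) tail. Pumilio proteins bind another short 3'UTR motif and repress translation by recruiting the CCR4-NOT deadenylase complex. FMRP, the product of Fmr1, is lost in fragile X syndrome, binds polyribosomes together with its relatives FXR1P and FXR2P, and restrains synaptic protein synthesis. Staufen 2 binds double-stranded structures of messenger RNAs and takes part in their transport into dendrites.

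Several of the genes hold, in their own 3'UTRs, the letters of the motifs that these proteins bind. The annotated 3'UTRs were searched on the transcript strand for TGTANATA, the core Pumilio element with any base at N, and for TTTTAT, a common form of the cytoplasmic polyadenylation element, in the NCBIM37 annotation. Windows of 30 bases around the first match after the stop codon are shown for the members on which the results below turn, 5' to 3', with the motif in capitals. All 6 lie in 3'UTR exons and were identical to the NCBIM37 genome at the coordinates given. The name on each line is that of the motif searched, and whether the match acts as such an element was not tested.
Cpeb4 polyadenylation element, chr11:31832007-31832036, plus strand: ttttctatccctTTTTATtctttaacagca
Cpeb3 polyadenylation element, chr19:37099204-37099233, minus strand: agaaatgggtctTTTTATtattattattat
Cpeb2 polyadenylation element, chr5:43677428-43677457, plus strand: tctccaagttatTTTTATatgtaaagttaa
Cpeb1 polyadenylation element, chr7:88492472-88492501, minus strand: agagaaaaattaTTTTATttaaaactggac
Pum2 Pumilio element, chr12:8756960-8756989, plus strand: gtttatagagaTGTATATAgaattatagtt
Fmr1 Pumilio element, chrX:65970463-65970492, plus strand: gtttaaaatacTGTAGATAattaaccaagg

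TTTTAT was present in the 3'UTR of 7 members, beside 53.5% of the 14562 tested genes with an annotated 3'UTR. Among genes within 20% of the length of each of these 7, the share with a match ran from 61.3% (Cpeb1) to 90.0% (Cpeb4). The Cpeb2 3'UTR of 3778 nt held 20 matches, and none of the 1171 tested genes of like length (within 20%) held as many (0%). The Cpeb4 3'UTR of 4102 nt held 11 matches, a number reached by 2.3% of 1002 genes of like length, whose median was 3. Cpeb3 held 6 matches in 3569 nt, Pum2 held 5 in 2861 nt, Fmr1 held 4 in 2312 nt, and Cpeb1 and Stau2 held 2 each, numbers reached by 19.5%, 22.2%, 23.4%, 33.7% and 56.7% of the genes of their length. TGTANATA was present in 5 members, beside 24.5% of all genes searched. Among genes of the length of each of these 5, the share with a match ran from 24.7% (Cpeb1) to 51.0% (Cpeb2). Pum2 and Fmr1 held 2 matches each, a number reached by 13.9% and 11.5% of the genes of their length. Cpeb1, Cpeb2 and Cpeb3 held 1 each, a number reached by 24.7%, 51.0% and 50.1%. Cpeb4 held no match, and Fxr1 and Fxr2, with 3'UTRs of 255 and 598 nt, held neither motif. A match is a run of letters and not a measured binding site, and matches that overlap were all counted.

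All 9 genes were read in every library, with at least 2376 reads each. Per kb of merged exon length, Fxr2 was the highest in the libraries labelled Gadd45a-WT at 33.8 ± 0.74 CPM per kb (SD, n = 6), followed by Cpeb1 at 31.9 ± 1.03, Pum2 at 31.1 ± 2.24 and Cpeb4 at 28.3 ± 1.56 CPM per kb. The libraries of each of these overlapped with those of the next in the order. A gap followed, and then Fxr1 at 23.4 ± 1.25 and Stau2 at 21.9 ± 0.99 CPM per kb. At the low end Fmr1 had 9.13 ± 0.49 CPM per kb, Cpeb3 8.74 ± 0.59 and Cpeb2 8.37 ± 0.64, and these 3 could not be told apart by their spread. In the libraries labelled Gadd45a-KO the order was the same down to Fmr1, and Cpeb2 and Cpeb3 exchanged places. There, Fxr2 and Cpeb1 no longer overlapped with the gene below them, whereas Cpeb4, at 24.4 ± 1.24 CPM per kb, now overlapped with Fxr1. The merged exon length counts every annotated exon, so a level per kb is too low for a gene whose long isoforms are rare.

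**Figure D1:**
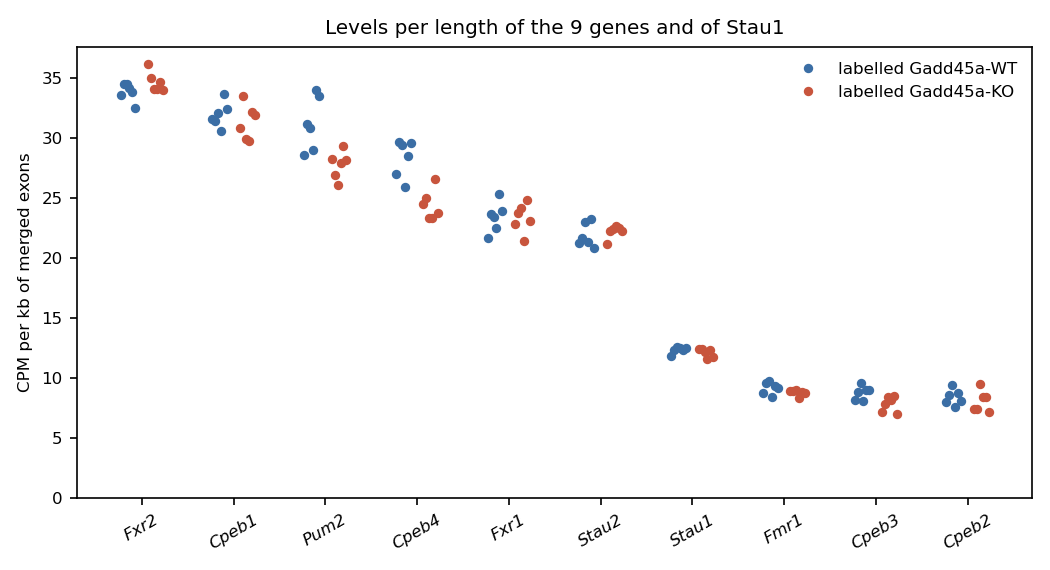
Level per length (CPM per kb of merged exons, vertical axis from 0) of the 9 genes and of Stau1, with 1 point per library, blue for the label Gadd45a-WT and red for Gadd45a-KO, in order of the mean of the first. Fxr2, Cpeb1, Pum2 and Cpeb4 form the upper range, Fmr1, Cpeb3 and Cpeb2 the lower one, and the red points of Pum2 and Cpeb4 lie mostly under the blue ones.

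Across the labels, 1 of the 9 genes, Cpeb4, passed the 1% false discovery rate, and it was lower in the libraries labelled Gadd45a-KO. None was higher, and at an unadjusted p under 0.05 there were 3 lower and 0 higher, beside 9.35% and 4.34% of all tested genes. DESeq2 likewise called 1 lower and 0 higher. In edgeR's quasi-likelihood test over all 16399 genes, 2.62% of genes were lower (430 genes) and 0.0244% higher (4 genes), so a single gene of 9 is no result about the group. The count of lower genes itself fell to between 239 and 276 when replicate 3, 5 or 6 labelled Gadd45a-WT or replicate 1, 2 or 6 labelled Gadd45a-KO was left out. Of the 9, 7 had a fold change below 0, beside 7905 of the 16399 tested genes, and the median log2 fold change of the 9 was -0.061, beside 0.0033 for all tested genes. In the exact two-sided permutation test of single genes, unadjusted, Cpeb4 (p = 0.0043), Pum2 (p = 0.0087) and Cpeb3 (p = 0.030) were lower, 3 of 9, beside 9.22% of all tested genes, and the other 6 had p-values of at least 0.11.

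The CPEB genes are 4 paralogues, of which Cpeb2, Cpeb3 and Cpeb4 resemble each other more closely than Cpeb1. Cpeb4 lay between 165 and 189 CPM in the libraries labelled Gadd45a-WT (median 185) and between 149 and 170 CPM in those labelled Gadd45a-KO (median 154). Of the 6 values under the label Gadd45a-KO, 5 were below all those of the other label, and 1 overlapped. The log2 fold change was -0.21 (SE 0.044; edgeR quasi-likelihood test, adjusted p = 0.0086). In linear terms the level fell by 13.8%, with a 95% interval from -19.2% to -8.05%. The gene (ENSMUSG00000020300) lies at chr11:31772211-31835634 on the plus strand of NCBIM37.

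The Cpeb4 value sat close to the threshold. When 1 library was left out, its adjusted p in the edgeR test rose above 0.01 in 9 of 12 cases. It was 0.028, 0.035, 0.033 and 0.028 without replicate 2, 3, 5 or 6 labelled Gadd45a-WT, and 0.030, 0.018, 0.024, 0.031 and 0.036 without replicate 1, 2, 3, 4 or 6 labelled Gadd45a-KO. Without both libraries with high thalamus markers it was 0.045, with a log2 fold change of -0.21. Over the 12 cases that leave out 1 library the log2 fold change ranged from -0.23 to -0.19. These fits share most of their libraries, so a narrow range is no separate result. DESeq2 gave a log2 fold change of -0.21 with an adjusted p of 0.00019. With an offset for transcript length the log2 fold change was -0.16 (edgeR, adjusted p = 0.027), and with one for GC content -0.15 (edgeR, adjusted p = 0.014). With the summed thalamus markers as a covariate it was -0.21 (edgeR, adjusted p = 0.028). The adjusted p was above 0.01 in each of these fits. Both offsets were fitted to these libraries, so they also take out any difference between the labels that follows length or GC content.

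Cpeb3 had the next lowest change within the family, from a median of 65.8 CPM (59.6 to 71.0) in the libraries labelled Gadd45a-WT to 58.9 CPM (51.6 to 63.1) in those labelled Gadd45a-KO. The groups overlapped in 3 libraries labelled Gadd45a-KO, and the log2 fold change of -0.16 (SE 0.058) did not pass the test (edgeR, adjusted p = 0.18). Cpeb2 varied most among the 9, with a coefficient of variation of 7.65% under the label Gadd45a-WT and 11.1% under Gadd45a-KO. It had medians of 59.0 CPM (53.8 to 66.6) and 56.0 CPM (51.0 to 67.5). Its highest library of all 12 was replicate 3 labelled Gadd45a-KO, which also had the highest thalamus and oligodendrocyte markers. The log2 fold change of Cpeb2 was -0.062 (SE 0.069; edgeR, adjusted p = 0.80), and the 95% interval ran from -13.6% to 6.21%. When 1 library was left out it ranged from -0.11, without that replicate 3, to -0.020, with adjusted p-values of at least 0.585 (edgeR). With the thalamus marker covariate it was -0.10 (edgeR, adjusted p = 0.87), and with the offset for transcript length 0.0032 (edgeR, adjusted p = 0.99). Cpeb1 (ENSMUSG00000025586, chr7:88491912-88600351, minus strand), the founding member of the family, gave medians of 133.3 CPM (128 to 141) and 131.4 CPM (125 to 140), a log2 fold change of -0.029 (SE 0.036; edgeR, adjusted p = 0.83) with an interval from -7.09% to 3.44%. A change of the size measured for Cpeb4 lies outside the Cpeb1 interval. Together the 4 genes had 439 ± 20.3 CPM under the label Gadd45a-WT and 402 ± 14.7 CPM under Gadd45a-KO (SD, n = 6). Cpeb4 supplied 41.2 ± 0.83% of the CPEB reads under the first label and 38.8 ± 1.19% under the second, and Cpeb1 supplied 30.5 ± 1.01% and 32.6 ± 1.47%.

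Pum2 (ENSMUSG00000020594, chr12:8680940-8759387, plus strand) was the most abundant of the 9 by reads. It had a median of 225 CPM (207 to 246) in the libraries labelled Gadd45a-WT and of 204 CPM (189 to 213) in those labelled Gadd45a-KO, of which 5 of 6 were below every library of the other label. The log2 fold change of -0.17 (SE 0.047), or -10.9% with a 95% interval from -16.9% to -4.47%, did not pass the test (edgeR, adjusted p = 0.064). An offset for transcript length brought the Pum2 value to -0.11 (adjusted p = 0.24), and leaving out both libraries with high thalamus markers to -0.13 (adjusted p = 0.34).

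None of the 3 genes of the FMRP family passed the test. Fmr1 on the X chromosome had a median of 82.5 CPM (75.2 to 86.9) in the libraries labelled Gadd45a-WT and of 79.2 CPM (74.3 to 80.4) in those labelled Gadd45a-KO. All 6 of the latter were under the mean of the former, 81.9 CPM, but 5 of them were within its range, and the log2 fold change was -0.061 (SE 0.038; edgeR, adjusted p = 0.55). With the GC content offset the log2 fold change of Fmr1 was -0.00039 (edgeR, adjusted p = 0.997). Fxr1 had medians of 56.7 CPM (52.3 to 61.1) and 56.5 CPM (51.7 to 59.8). Its 95% interval ran from -6.44% to 6.34%, and the sign of its log2 fold change, -0.0037 (SE 0.043; edgeR, adjusted p = 0.98), turned with DESeq2, with its size factors in edgeR (RLE) and with the GC content offset. Fxr2, the most abundant of the 3, had medians of 128.0 CPM (122 to 130) and 129.3 CPM (128 to 136), with a log2 fold change of 0.033 (SE 0.028; edgeR, adjusted p = 0.70). Its levels under the label Gadd45a-KO were all above the mean of the other label, 127.4 CPM. Its spread was the smallest of the 9 under the label Gadd45a-WT, with a coefficient of variation of 2.18%. The summed level of the family was 265.7 ± 7.57 CPM under the label Gadd45a-WT and 265.2 ± 6.30 CPM under Gadd45a-KO (SD, n = 6).

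Stau2, the neuronal Staufen, had medians of 145 CPM (141 to 157) under the label Gadd45a-WT and 151 CPM (143 to 152) under Gadd45a-KO, the range of the second lying within that of the first. Its log2 fold change was 0.021 (SE 0.034; edgeR, adjusted p = 0.87). Stau1, the widely expressed paralogue, had medians of 75.1 CPM (71.7 to 75.9) and 74.0 CPM (70.3 to 75.3) and a log2 fold change of -0.027 (SE 0.029; edgeR, adjusted p = 0.78). The 95% intervals ran from -3.52% to 6.73% for Stau2 and from -5.96% to 2.39% for Stau1.

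**Figure D2:**
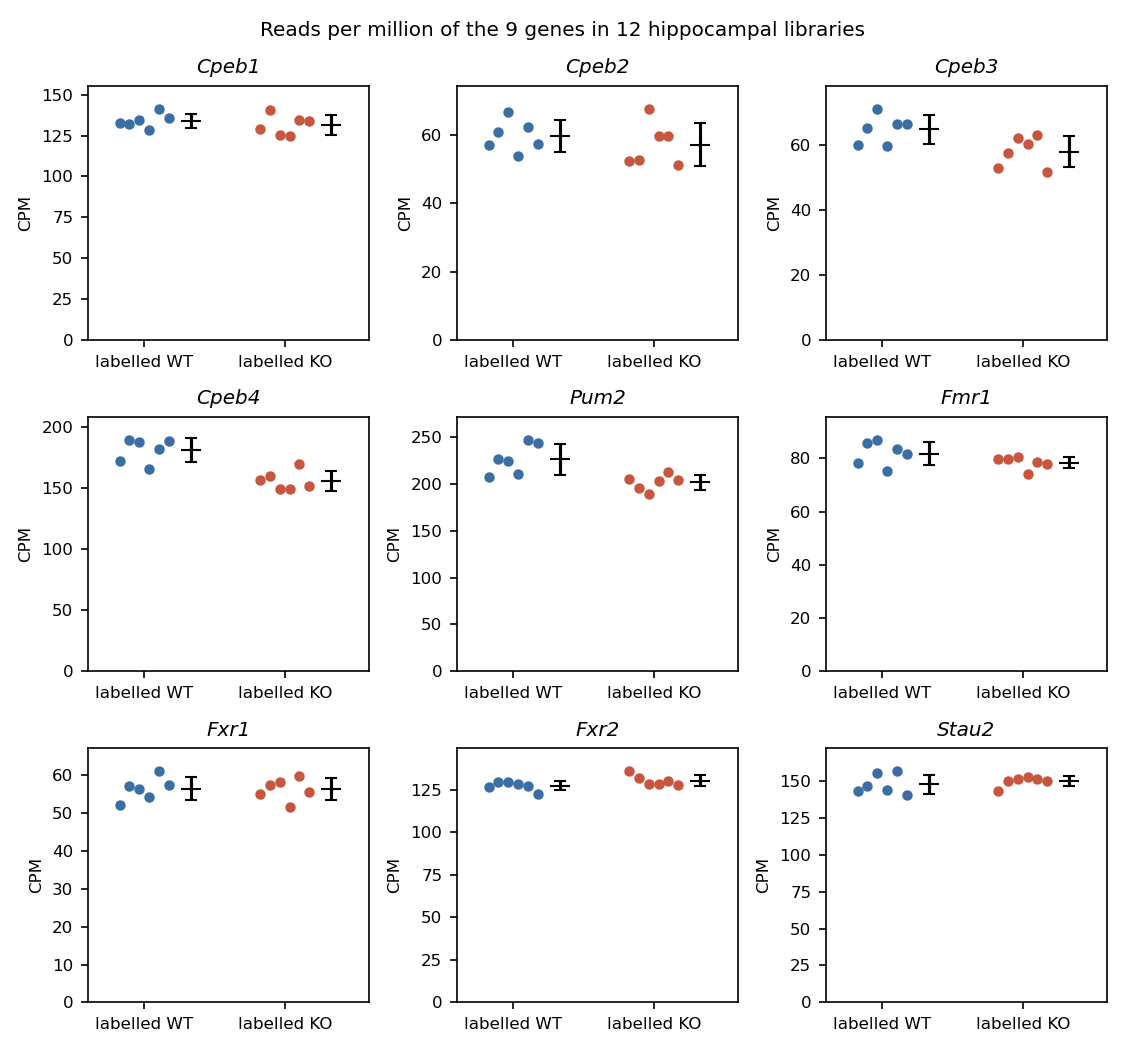
Level of each of the 9 genes in the 12 libraries (CPM, each axis from 0), with points for libraries in the order of their replicate number and a bar for the mean and SD (n = 6) to the right of each group. The red points of Cpeb4, Pum2 and Cpeb3 sit under most blue points, with overlap in all 3. Those of Fxr2 lie in part above the blue ones, and those of the remaining genes overlap widely with the blue ones.

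**Figure D3:**
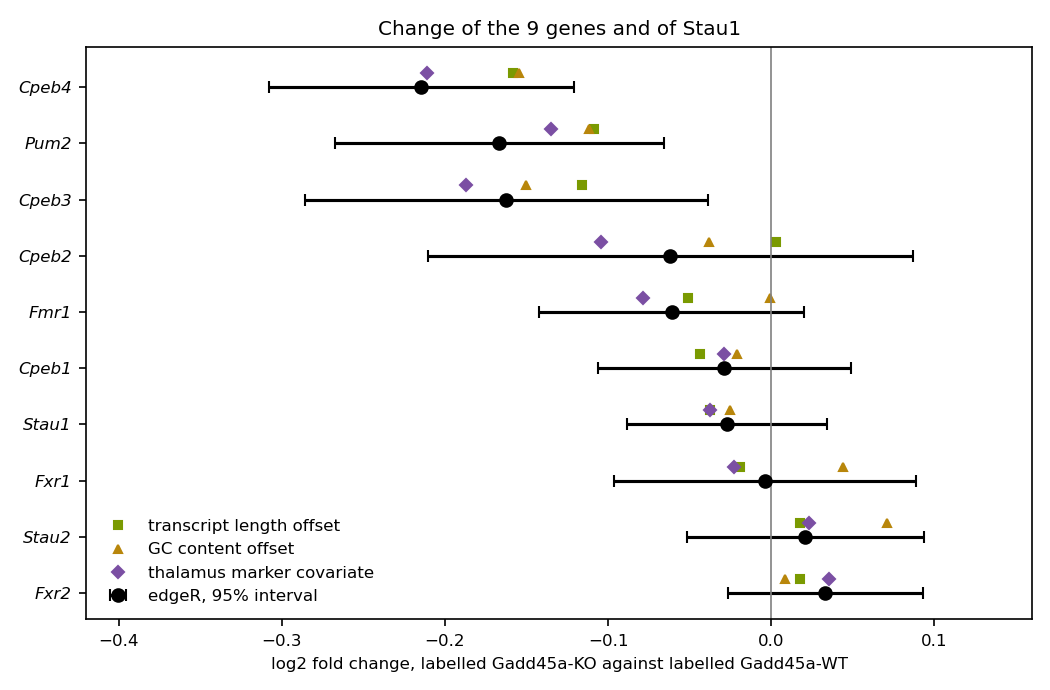
Log2 fold change (horizontal axis) of the 9 genes and of Stau1 between the labels, as edgeR's estimate with its 95% interval (black) and as the estimate with an offset for transcript length (square), an offset for GC content (triangle) or the summed thalamus markers as a covariate (diamond). The black intervals of Cpeb4, Pum2 and Cpeb3 lie under 0, and both offsets move these 3 estimates towards 0.

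Since the scaling of a library cancels in a ratio of 2 genes, the balance between paralogues was compared within each library, as log2 ratios of 10 pairs with a prior count of 2. Each was tested by an exact two-sided permutation test of the mean difference between the labels, with Benjamini-Hochberg adjustment. The smallest p this design allows is 0.0022. Of the 10 pairs, 1 passed an adjusted p of 0.05, Cpeb1/Cpeb4.

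The log2 ratio of Cpeb1 to Cpeb4 lay between -0.52 and -0.37 in the libraries labelled Gadd45a-WT and between -0.33 and -0.18 in those labelled Gadd45a-KO. The groups did not overlap, and the mean difference was 0.18 (exact permutation p = 0.0022, adjusted p = 0.012, or 0.022 when adjusted over these 10 pairs alone). When any 1 library was left out, the adjusted p in the exact test was at most 0.024, and at most 0.043 over the 10 pairs alone. Without both libraries with high thalamus markers the difference was 0.17, and the adjusted p in the exact test of 6 against 4 was 0.052, or 0.048 over the 10 pairs alone, so the call there turns on the adjustment. In the edgeR fits, the difference between the log2 fold changes of Cpeb1 and Cpeb4 went from 0.19 to 0.11 with the offset for transcript length and to 0.13 with that for GC content. No test of this difference was run with the offsets. A ratio keeps a shift that follows transcript length, and the longest annotated transcripts were 3111 nt for Cpeb1 and 6303 nt for Cpeb4. How often the ratio of other gene pairs separates the labels was not computed.

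Of the other 9 pairs, Cpeb2/Cpeb3 differed by 0.098 and Fmr1/Fxr2 by -0.093, each with an adjusted p of 0.089 in the exact permutation test. Cpeb2/Cpeb3 passed without replicate 2 labelled Gadd45a-KO (exact test, adjusted p = 0.016) and Fmr1/Fxr2 without replicate 4 labelled Gadd45a-WT (exact test, adjusted p = 0.024). In the edgeR fits, the difference between the log2 fold changes of Fmr1 and Fxr2 went from -0.094 to -0.0090 with the GC content offset. With the offset for transcript length it was -0.068. For Cpeb2 and Cpeb3 the difference went from 0.10 to 0.11 with the GC content offset and to 0.12 with that for transcript length. None of these differences was tested with the offsets. Cpeb1/Cpeb3 and Cpeb2/Cpeb4 differed by 0.13 and 0.15, each with an adjusted p of 0.17 in the exact test. Cpeb3/Cpeb4 differed by 0.051 (exact test, adjusted p = 0.48). Fmr1/Fxr1, Fxr1/Fxr2, Stau2/Stau1 and Cpeb1/Cpeb2 differed by -0.056, -0.037, 0.049 and 0.036, with adjusted p-values of 0.22, 0.50, 0.29 and 0.70 in the exact test. In the edgeR fits, Fxr1/Fxr2 turned to 0.036 with the GC content offset and Cpeb1/Cpeb2 to -0.047 with that for transcript length.

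**Figure D4:**
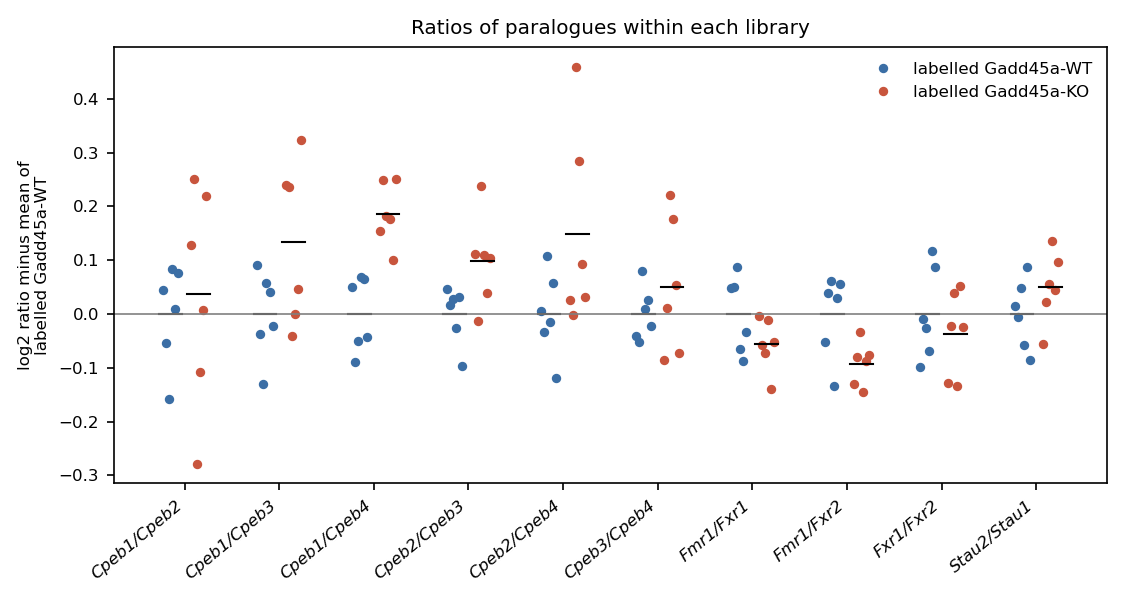
Log2 ratio of paralogues in each library, minus the mean of the libraries labelled Gadd45a-WT (vertical axis), for the 10 pairs, with 1 point per library and a line at each mean. The red points lie apart from the blue ones for Cpeb1/Cpeb4, which is higher under the label Gadd45a-KO, while they overlap in the other 9 pairs.

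The members with the lowest fold changes had long 3'UTRs, a description chosen after the values were seen. Cpeb4, Cpeb2, Cpeb3 and Pum2 have the 4 longest 3'UTRs of the 9 at 4102, 3778, 3569 and 2861 nt, and they include the 3 lowest log2 fold changes. The same direction was seen over all genes: the median log2 fold change was -0.050 for the 1209 tested genes with over 3500 nt of 3'UTR, beside 0.0089 for the 4151 genes with 1 to 500 nt. Of the long class 10.6% were lower at the 1% false discovery rate (edgeR), and of the short class 1.42%. Cpeb4, at -0.21, lay under the lower quartile of its class, -0.16, Cpeb3 was at that quartile, and Cpeb2, at -0.062, was near the class median. Pum2, at -0.17, lay under the lower quartile of the class of over 2000 to 3500 nt, -0.063, in which Fmr1 and Stau2 also fall. With the offset for transcript length the median of the long class was 0.012. That offset takes out any change that follows transcript length, so a median near 0 is no separate result. A 3'UTR here is the longest among transcripts that keep at least 80% of the longest coding sequence of the gene.

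**Figure D5:**
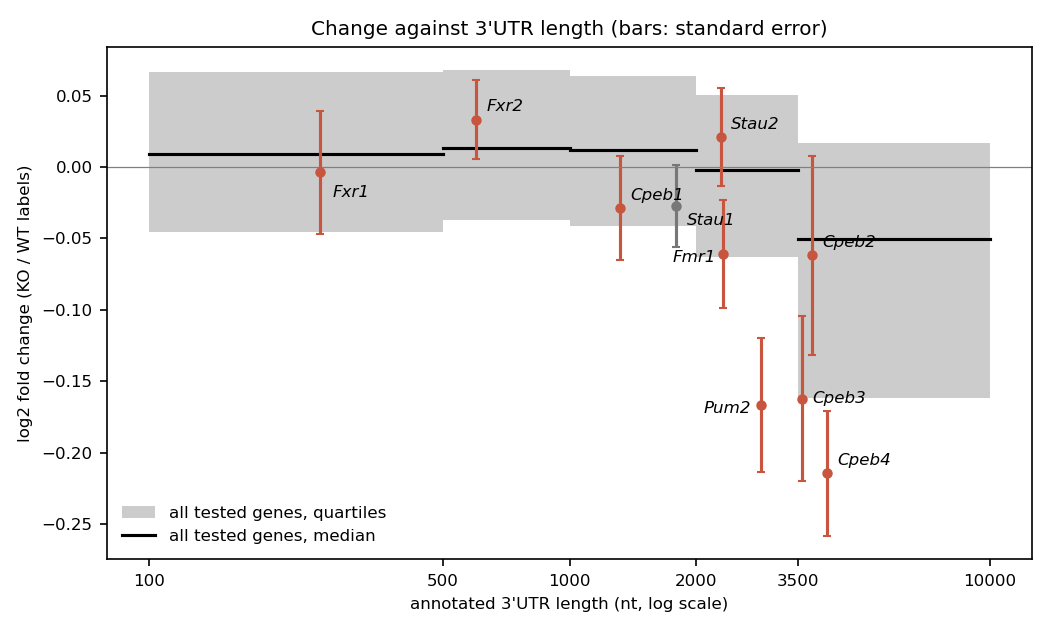
Log2 fold change between the labels (vertical axis) against annotated 3'UTR length (nt, log scale), for the 9 genes (red) and for Stau1 (grey) with standard errors, over the quartiles (band) and median (line) of all tested genes in 5 length classes, the first and last drawn from 100 and to 10000 nt. Cpeb4 and Pum2 lie under the band of their class, and Fxr1, Fxr2, Cpeb1 and Stau2 inside it.

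The genes whose levels followed Cpeb4 most closely, by Pearson's r of log2 CPM over the 12 libraries after the mean of each label was subtracted, were C77370 (r = 0.95), Abca4 (r = 0.94) and Zmym2 (r = 0.94). C77370 and Zmym2 were also lower in the libraries labelled Gadd45a-KO, with log2 fold changes of -0.25 and -0.27 (edgeR, adjusted p = 0.0067 and 0.00086). Abca4 was not, at 0.0033 (edgeR, adjusted p = 0.996). They were the closest of 16398 other genes over the same 12 libraries and are named as a description only.

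The partners of these proteins were compared in 5 lists of other genes, and their known target messenger RNAs in another. These lists were drawn up from general knowledge with earlier results of these data known. Of the CPEB cofactors and polyadenylation factors, 0 of 16 tested genes passed in either direction, with a median log2 fold change of 0.0078. The smallest p belonged to Ddx6, a helicase of repressed messenger ribonucleoproteins, with -0.14 (SE 0.041; edgeR, adjusted p = 0.087), and to Tob1, which links CPEB proteins to the deadenylase, with 0.12 (SE 0.046; adjusted p = 0.20). Of the Pumilio cofactors, 0 of 11 passed the 1% rate and the median was -0.085. Ago2, an Argonaute protein, went from 123.5 ± 12.7 to 101 ± 7.25 CPM (SD, n = 6), with no overlap between the labels and a log2 fold change of -0.29 (edgeR, adjusted p = 0.018). Cnot1, the scaffold of the CCR4-NOT complex, went from 145.8 ± 14.6 to 116.5 ± 13.5 CPM with -0.32 (edgeR, adjusted p = 0.027). FMRP and FXR partners gave 0 of 11 and a median of -0.0079. The smallest p there were those of Nufip2, with -0.24 (edgeR, adjusted p = 0.036), and of Tdrd3, with 0.068 (adjusted p = 0.54), and Cyfip1 and Cyfip2, which join FMRP to the WAVE complex, differed by -0.017 and 0.025. Cap-dependent initiation factors gave 0 of 15 and a median of 0.0061, with the smallest p for Eif4ebp1 at -0.21 and Paip2 at 0.052 (edgeR, adjusted p = 0.48 for both). At an unadjusted p under 0.05 in the edgeR test, the CPEB list held 1 lower and 2 higher genes, the Pumilio list 4 and 1, the FMRP list 1 and 0 and the initiation list 0 and 0, beside 9.35% lower and 4.34% higher of all tested genes. At 1% DESeq2 called 2 genes of the Pumilio list lower and 0 in the other 3.

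Of the 20 tested gene IDs for Staufen partners and neuronal RNA granule proteins, 2 of them for Purb, 2 were lower, beside 2.62% of all tested genes. None was higher. At an unadjusted p under 0.05 (edgeR) 5 were lower and 2 higher, beside 9.35% and 4.34% of all tested genes. At 1% DESeq2 called 4 lower and 1 higher, beside 658 and 18 of the 16399 tested genes. Kif5b, a kinesin heavy chain that carries dendritic RNA granules, fell from 217 ± 12.5 to 185 ± 9.08 CPM with a log2 fold change of -0.23 (SE 0.044; edgeR, adjusted p = 0.0055), and 5 of its 6 values under the label Gadd45a-KO were below all those of the other label. Its adjusted p was between 0.011 and 0.024 without replicate 2, 3, 4, 5 or 6 labelled Gadd45a-WT or replicate 1, 2, 4 or 6 labelled Gadd45a-KO, with log2 fold changes from -0.23 to -0.20. It was 0.011 with the offset for transcript length (log2 fold change -0.18), 0.014 with that for GC content (-0.17) and 0.013 without both libraries with high thalamus markers (-0.25). The other called gene ID was 1 of 2 annotated pieces of Purb, an RNA granule protein. The piece ENSMUSG00000091207 had 4.10 ± 0.52 and 1.00 ± 0.17 CPM (log2 fold change -2.03, adjusted p = 2e-07), while the piece ENSMUSG00000049647 had 232 ± 10.3 and 257 ± 12.3 CPM (log2 fold change 0.15, adjusted p = 0.047). The pieces lie on the same strand of chromosome 11 and move in opposite directions, so the change of Purb as a gene is uncertain. The related Pura had 267 ± 14.9 and 234 ± 8.39 CPM, a log2 fold change of -0.19 that missed the 1% rate (edgeR, adjusted p = 0.011).

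The messenger RNAs known as targets of the members had 25 gene IDs, since Scn8a was counted under 2 IDs (means of 593 and 4.74 CPM under the label Gadd45a-WT). Of the 25, 3 were lower, beside 2.62% of all tested genes, and none was higher. The median log2 fold change was -0.062, with 21 of 25 below 0, beside 7905 of the 16399 tested genes. At an unadjusted p under 0.05 (edgeR) 8 were lower and 0 higher, beside 9.35% and 4.34% of all tested genes. At 1% DESeq2 called 6 lower and 0 higher, beside 658 and 18 of the 16399 tested genes. Grin2a, a subunit of the NMDA receptor, fell from 39.1 ± 12.9 to 14.9 ± 2.11 CPM (SD, n = 6), with a log2 fold change of -1.40 (SE 0.19; edgeR, adjusted p = 0.00052). Grm5, the metabotropic glutamate receptor mGluR5, fell from 306 ± 21.3 to 243 ± 17.3 CPM, with -0.33 (SE 0.055; adjusted p = 0.0019). Map2, the dendritic microtubule-associated protein, fell from 1171 ± 104 to 933 ± 55.6 CPM, also with -0.33 (SE 0.059; adjusted p = 0.0039). In these 3 genes the ranges of the 2 labels did not overlap, with Gadd45a-KO the lower, which held for 3.12% of all tested genes. Grin2a also passed with the offset for transcript length, with -1.37 (edgeR, adjusted p = 0.0006), and without both libraries with high thalamus markers, with -1.31 (adjusted p = 0.0055). Grm5 and Map2 missed the 1% rate under both, with log2 fold changes of -0.26 and -0.28 for Grm5 (adjusted p = 0.011 and 0.011) and of -0.27 and -0.29 for Map2 (adjusted p = 0.015 and 0.030). Map2 also missed it, with adjusted p-values between 0.012 and 0.016, without replicate 3, 5 or 6 labelled Gadd45a-WT or replicate 1 or 2 labelled Gadd45a-KO. Grin2b, Gria2, Map1b and Scn1a had log2 fold changes of -1.46, -0.27, -0.24 and -0.26 and missed the 1% rate (edgeR, adjusted p between 0.020 and 0.040). The other 18 target IDs had adjusted p-values from 0.14 (Kcnd2, log2 fold change -0.14) to 0.9998 (edgeR). Among them, Camk2a was at 5768 and 5686 CPM, Arc at 89.2 and 82.4 CPM, Dlg4 (PSD-95) at 798 and 788 CPM and Actb at 814 and 825 CPM (means under the labels Gadd45a-WT and Gadd45a-KO). Over all lists together, the members not counted, 5 gene IDs were lower and none higher, the piece of Purb among them. With the offset for transcript length 2 were lower, and 2 without both libraries with high thalamus markers. The count was 8 without replicate 1 labelled Gadd45a-WT and 3 without its replicate 3, 5 or 6 or without replicate 1 or 2 labelled Gadd45a-KO.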

How the data were processed

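Poly(A) RNA from 12 mouse hippocampi was sequenced on 12 stranded libraries. The deposited values are whole-number read counts per Ensembl gene, which the authors made with TopHat 1.4.1 on NCBIM37 (mm9) and HTSeq 0.5.4p3 per the labels, counting the reverse strand; reads on several places were not counted. All 37991 genes were used and 37205 had a name in the NCBIM37 annotation.

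Counts were tested as deposited with edgeR 4.0.16 in R 4.3.3 (filterByExpr, TMM, quasi-likelihood test, Benjamini-Hochberg adjustment over 16399 genes, threshold 1%), with the labels as the only term. Standard errors are the log2 fold change over the root of F, and 95% intervals use the test's degrees of freedom. Ratios and levels were compared with exact permutation tests in scipy 1.17.1. The ratios were adjusted over 11 pairs, of which 1 is not reported here. The alternatives were DESeq2 1.42.0, RLE scaling, other filters, a 5% rate, offsets for transcript length and GC content (splines with 5 degrees of freedom), 1 surrogate variable (sva 3.50.0), a thalamus marker covariate, a replicate block and leaving out each library. The code was tested on simulated data. Libraries within a label varied beyond counting error (chi-square per degree of freedom 9.03 to 40.8 over 30 pairs).

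The members and lists were chosen with earlier results of these data known. Named were the members, Stau1 and Gadd45a, in each list the genes past 1% (or the 2 with the smallest p), and the 3 genes most like each member past 1%; other genes were named after their values were seen. The labels do not say that replicate numbers pair animals, and p-values set the difference between the labels against the spread between these animals.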

Additional observations from a re-analysis of the deposited data

Results flagged for a closer look

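Each of the 22 groups of 6 libraries for the 11 genes named first, and each of the 20 groups for the 10 ratios, was examined for a library far from the others by Dixon's criterion, which chance meets in about 1 of 20 groups. It was met in 2 groups, beside 2.1 that chance gives. Stau2 was at 142.9 CPM in replicate 1 labelled Gadd45a-KO, beside 149.9 to 152.5 CPM in the other 5 libraries of that label. Stau1 was at 71.7 CPM in replicate 1 labelled Gadd45a-WT, beside 74.4 to 75.9 CPM in the other 5. Neither value moved the call of its gene.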

How the results depend on the processing

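DESeq2 was fitted to 25857 genes, and 658 of its calls of lower genes are among the 16399 genes of the reported fit. The number of genes lower in the libraries labelled Gadd45a-KO was 430 in the reported fit. It was 660 with DESeq2, 726 at a 5% rate, 251 with the transcript length offset, 278 with that offset and the replicate block, 264 with the thalamus marker covariate and 199 without both libraries with high thalamus markers (an alternative added after the data were seen), and 239 to 467 when 1 library was left out. Of the members, 1 was called, and 0 with the length offset, the GC content offset, either with the replicate block, the thalamus covariate or without those 2 libraries, and 0 to 1 when 1 library was left out. In the lists of other genes 5 were lower, 12 with DESeq2, 14 at a 5% rate, 2 with the length offset, 2 without those 2 libraries, and 3 to 8 when 1 library was left out. Of the ratios 1 passed, as it did when adjusted over the reported pairs alone (also added after the data were seen), 0 without those 2 libraries, where 4 libraries remain in one group, and 1 to 2 when 1 library was left out. The cause of these differences was not tested.

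Signs turned where the value was near 0. Fxr1, at -0.0037, was 0.0019 with DESeq2, 0.0023 with RLE scaling, 0.0034 with no filter, 0.0042 with at least 10 reads in every library, 0.044 with the GC content offset with or without the replicate block, and -0.014 to 0.029 when 1 library was left out. Cpeb2 was 0.0032 with the length offset and 0.0014 with that offset and the replicate block. The ratio Cpeb1/Cpeb2 ranged from -0.0065 to 0.099 when 1 library was left out. Cpeb1, Cpeb3, Cpeb4, Pum2, Fmr1, Fxr2, Stau2 and Stau1 kept their sign in all alternatives run. Fmr1 kept little more than its sign with the GC content offset. It went from -0.061 to -0.00039, and to -5.7e-05 with that offset and the replicate block.

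The labels share replicate numbers between the groups. Deviations from the label means correlated between same-numbered libraries with r from -0.076 to 0.26, and 1 of 6 libraries matched its own number best, so the numbers were not taken as pairs. With the replicate block, 509 genes were lower over all genes, 1 among the members and 9 in the lists, Cpeb4 had an adjusted p of 0.0085 (edgeR), and 0 of 10 ratios passed an exact sign-flip test, in which the smallest p is 0.031 (Cpeb1/Cpeb4, adjusted p = 0.086).

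Members had 2376 to 12962 reads per library, and whether more depth would detect more was not tested. The counts hold no position within a gene, so isoforms, 3'UTR use and exon 4 of Gadd45a were not analysed here.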
